A study of Mus musculus with 16 samples.

Results

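Left ventricles of mice that overexpress Gαq in the heart were compared with those of wild type (WT) mice at 20 weeks of age, across all expressed genes. The comparison used the 8 mice whose labels give an age of 20 weeks, 4 of each genotype, of 16 mice sequenced. All were FVB/N mice, male according to the study's methods, and the labels give no drug or diet. The Gαq mice are labelled as Gnaq overexpressors of the cardiac-specific transgenic line of Adams et al. The labels do not name the promoter, which in this line is that of the α-myosin heavy chain gene, active in cardiac myocytes. The labels also give the cage: WT replicate 1 shared a cage with Gαq replicates 1 and 2, WT replicate 2 shared one with Gαq replicates 3 and 4, and WT replicates 3 and 4 came from a cage of WT mice only. The authors prepared poly(A)-selected libraries and deposited counts of read pairs for nuclear-encoded genes, between 20562089 and 27572201 per mouse at 20 weeks.

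Gαq is the α subunit of the G protein that couples receptors for angiotensin II, endothelin and α1-adrenergic agonists to phospholipase Cβ, and so to protein kinase C and to the release of stored calcium. Sustained activity of this pathway in cardiac myocytes is known for hypertrophic growth that passes into dilated cardiomyopathy. Diseased ventricles of many origins are also known for re-expressing genes of the fetal heart, gaining collagen matrix and losing ion channels and calcium pumps.

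Gnaq (ENSMUSG00000024639, chromosome 19 from 16132831 to 16387463 of GRCm38) was at 275, 802, 193 and 112 CPM (TMM-normalized counts in each 1e6) in WT replicates 1 to 4 and at 12400, 9927, 11190 and 12320 CPM in Gαq replicates 1 to 4. Values by mouse are given in this order from here on. The groups were far apart, and WT replicate 2 was the highest WT mouse. Endogenous Gnaq and transgene reads cannot be told apart in these counts. Of its family, Gna11 had a log2 fold change of 0.15 (adjusted p = 0.122) and Gna15 one of 0.40 (adjusted p = 0.346), while Gna14 was too low to be tested.

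Of 16786 genes with enough counts to test, 3919 (23.3%) changed between genotypes at an adjusted p under 0.05 in the quasi-likelihood test of edgeR with Benjamini-Hochberg adjustment. In Gαq mice 1957 (11.7%) were higher and 1962 (11.7%) were lower, and in what follows rose, fell and changed stand for this test. The fitted log2 fold change was at least 1 for 467 of the risen genes and at most -1 for 342 of the fallen genes. The median log2 fold change over all tested genes was 0.011. Of 13762 protein-coding genes tested 3532 changed, and of 1232 processed pseudogenes 103. The share of all genes is therefore below that of protein-coding genes. For 4035 genes (24.0%) the values of the 2 genotypes did not overlap, with all Gαq mice above all WT mice for 1965 (11.7%) and below them for 2070 (12.3%), and 3262 of these genes also passed the test. On the first principal component, which held 48.0% of the variance, the Gαq mice lay between 29.63 and 36.38 and the WT mice between -42.71 and -23.41.

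With the cage as a block in a fit of the 20-week mice alone, 2089 genes passed, 1970 of them among the 3919 and in the same direction. Without the 2 mice of the cage of WT mice only, 2342 passed, of which 2164 were among the 3919 with the same sign. Genotype and cage can be compared within the cages that held both, and results with the cage as a block are given wherever that ended the call of a gene or moved the number of changed genes of a list by more than 1.5 times.

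Gene lists of 21 functions held 1287 tested genes, of which 304 rose and 178 fell. Among the changed members, rises outnumbered falls for collagens, matrix glycoproteins, the fetal programme and the integrated stress response, and falls outnumbered rises for potassium channels and glucose use. Each list is read against the 11.7% of all genes that changed in each direction, and its counts with the cage as a block against the 6.29% that rose and 6.71% that fell in that fit. Because the lists were chosen with earlier results of these data known, a share above these is a description and not a test.

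**Figure D1:**
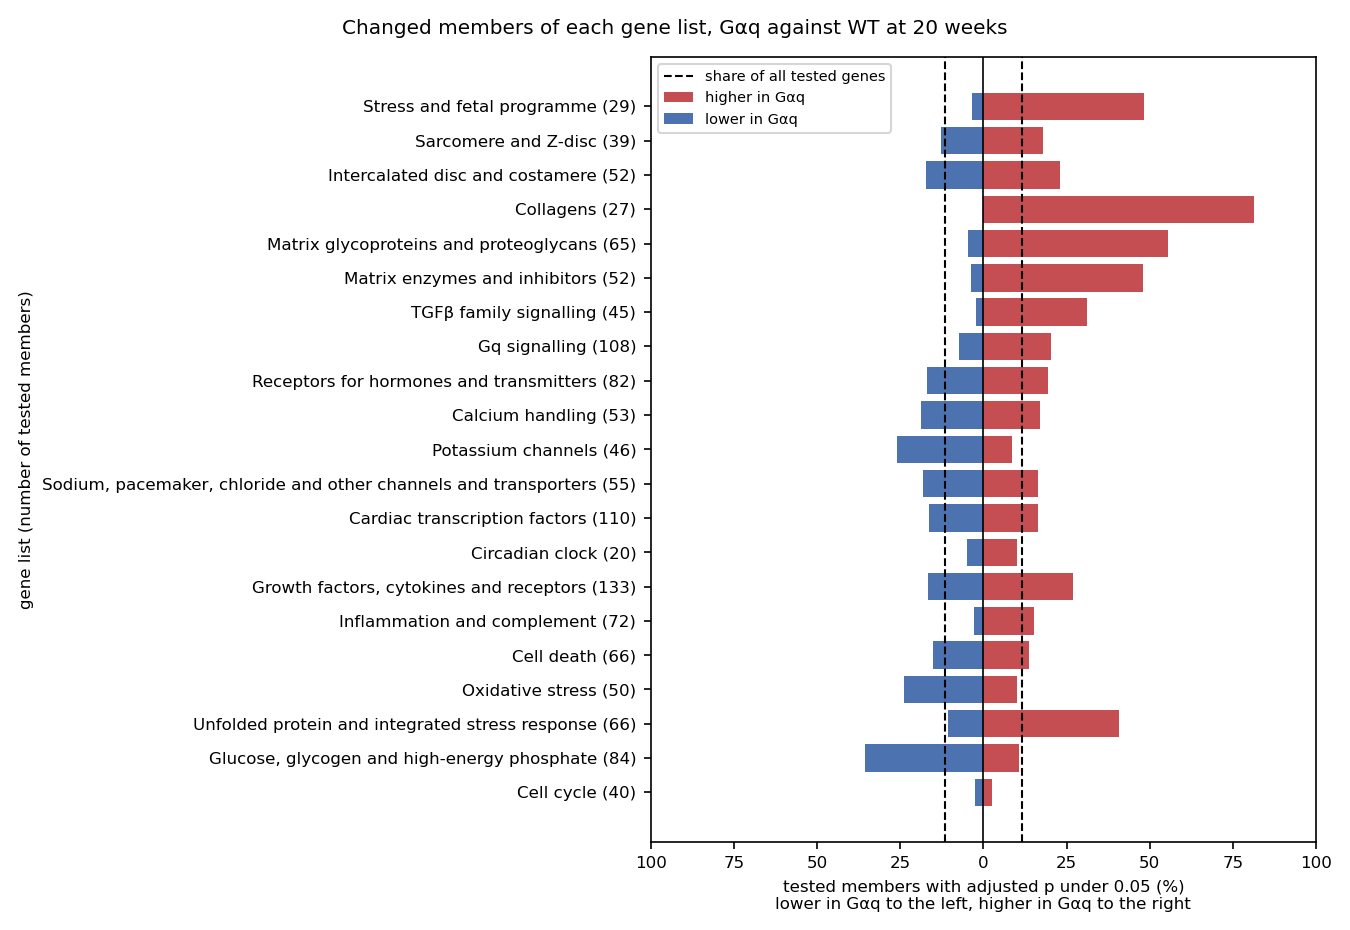
Percent of the tested members of each gene list that rose (right, red) or fell (left, blue) in Gαq against WT left ventricles at 20 weeks, with the number of tested members in parentheses. Dashed lines mark the 11.7% of all 16786 tested genes that rose and the 11.7% that fell. The lists were chosen with earlier results of these data known. Collagens reach furthest to the right, with 22 of 27 risen, and genes of glucose use furthest to the left, with 30 of 84 fallen.

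Many genes of the fetal and stress programme of the ventricle were higher. Of 29 tested genes 14 rose and 1 fell, with a median log2 fold change of 0.74. The natriuretic peptides, which working myocytes of the adult ventricle make at low levels and release under load, both rose. Nppa (ENSMUSG00000041616), the precursor of atrial natriuretic peptide, was at 213, 732, 382 and 193 CPM in the WT mice and at 13490, 17560, 8097 and 9565 CPM in the Gαq mice. Every Gαq mouse was more than an order of magnitude above every WT mouse. The means differed 32.0-fold, and log2 rose by 5.0 (standard error 0.46, adjusted p = 3.82e-07). Of the exon bases of Nppa 61.5% overlap a gene on the opposite strand, where counts depend on the strand setting. By the description of the series only pairs from the same strand were kept, and the strand setting itself is not given. Such overlap covers 64.7% of the exon bases of Pln, 37.0% of those of Tmem140 and 31.1% of those of Kcnj3. It covers 23.2% of the exon bases of Ccn2, 23.1% of those of P2ry1 and 22.3% of those of Bnip3. Nppb, the precursor of brain natriuretic peptide, was at 636, 899, 221 and 280 CPM in WT and at 1859, 2198, 2140 and 1429 CPM in Gαq. WT replicates 1 and 2, which shared cages with Gαq mice, were the higher WT mice, and the groups did not overlap. On the log2 scale it rose by 1.91 (standard error 0.49, adjusted p = 0.00737), and without the WT-only cage it no longer passed the threshold.

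Of 12 tested genes that respond to mechanical stress 6 rose and 1 fell. Ankrd1, a titin-binding repressor that also enters the nucleus, was at 3805, 3319, 2796 and 2177 CPM in WT and at 10770, 12030, 8626 and 9107 CPM in Gαq. The lowest Gαq mouse had more than 2 times the CPM of the highest WT mouse, and the log2 fold change was 1.74 (standard error 0.31, adjusted p = 0.000353). From other groups of the same list, Acta1, skeletal α-actin, which the heart expresses before birth, was at 1596, 1196, 1026 and 1191 CPM in WT and at 3642, 2554, 2473 and 4065 CPM in Gαq. All Gαq mice were above all WT mice. The log2 rise of 1.35 (adjusted p = 0.00621) did not pass without the WT-only cage. Rcan1, an inhibitor of calcineurin that calcineurin itself induces, was at 259, 258, 125 and 129 CPM in WT and at 810, 806, 537 and 558 CPM in Gαq. In both genotypes replicates 1 and 2 were the higher ones, and the groups did not overlap (log2 fold change 1.81, adjusted p = 6.44e-06). Xirp2, an actin-binding protein of the intercalated disc, rose by 1.33 on the log2 scale, Uchl1, a ubiquitin hydrolase, by 1.31, and Enah, an actin polymerization factor, by 1.08. Of 7 tested atrial and fetal sarcomere genes 3 rose and 4 did not pass. Among the risen ones Tnnt1, a skeletal muscle troponin T, rose by 1.56 and Myl1, a skeletal myosin light chain, by 1.79. Actc1, cardiac actin, had a log2 fold change of 0.14 (adjusted p = 0.505) and Csrp3, a stretch-sensing LIM protein, one of -0.02 (adjusted p = 0.926).

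Fhl2 (ENSMUSG00000008136) was the member of this list that fell. It encodes a LIM-only protein of the sarcomere that restrains hypertrophic signalling through calcineurin and ERK. Its abundance was 1754, 1921, 1957 and 1777 CPM in WT and 306, 277, 401 and 383 CPM in Gαq. The 4 mice of each genotype lay close together and far from those of the other (log2 fold change -2.44, standard error 0.11, adjusted p = 7.92e-11).

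Myosin heavy chains set the speed of contraction, with the fast α isoform (Myh6) dominant in the adult mouse ventricle and the slow β isoform (Myh7) in the fetus. Myh7 (ENSMUSG00000053093) was at 2332, 2238, 2210 and 1659 CPM in WT and at 6165, 6317, 4953 and 9693 CPM in Gαq, with no overlap. On the log2 scale it rose by 1.69 (standard error 0.18, adjusted p = 1.86e-06). Myh6 was at 39660, 36770, 40380 and 32570 CPM in WT and at 36050, 31420, 24430 and 35250 CPM in Gαq, and overlapped (log2 fold change -0.23, adjusted p = 0.319). Per kilobase of exon, Myh7 made up 4.39%, 4.54%, 4.10% and 3.82% of both myosins in the WT mice. It made up 11.8%, 13.6%, 13.7% and 17.7% in the Gαq mice, so that α-myosin was the larger part in all 8. Shares averaged 4.21% (SD 0.316, 4 mice) for WT against 14.2% (SD 2.49, 4 mice) for Gαq, a difference of 9.96 percentage points (two-sided exact permutation test, p = 0.0286, the smallest that 4 against 4 mice can give). Of the 50-base stretches of Myh7 20.0% occur also in Myh6 or in antisense transcripts of the locus, so the split is approximate.

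Genes of the sarcomere went both ways. Of 39 tested genes of filaments and Z-disc 7 rose and 5 fell (4 and 4 with the cage as a block), with a median log2 fold change of 0.03. Tnnt2 (-0.03, adjusted p = 0.873), cardiac troponin T, did not pass. Synpo2l, an actin-bundling protein of the Z-disc, rose by 2.0 on the log2 scale, and Myom2, which crosslinks myosin at the M-band, by 1.5, while Mylk4, a myosin light chain kinase, fell by 0.96. Tnni3, the inhibitory subunit of cardiac troponin, was at 4219, 4393, 4220 and 3985 CPM in WT and at 3121, 3275, 3173 and 3088 CPM in Gαq, a narrow spread without overlap (log2 fold change -0.41, adjusted p = 0.00124). Tcap, which caps titin at the Z-disc, fell by 0.63 but did not pass with the cage as a block.

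At the intercalated disc and the costamere, which anchor myocytes to each other and to the matrix, 12 of 52 tested genes rose and 9 fell (8 and 4 with the cage as a block). Itga9, an integrin α subunit that binds tenascin and osteopontin, rose by 1.35 on the log2 scale. Gjc1, the connexin 45 of the fetal heart and the conduction system, was at 25.1, 26.2, 23.8 and 27.2 CPM in WT and at 52.2, 50.5, 42.2 and 53 CPM in Gαq. No Gαq mouse came near the WT range (log2 fold change 0.95, adjusted p = 1.37e-07). Gja1, the connexin 43 of working myocardium, had a log2 fold change of -0.13 (adjusted p = 0.463). Dsg2, the desmosomal cadherin of the heart, fell by 1.18.

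**Figure D2:**
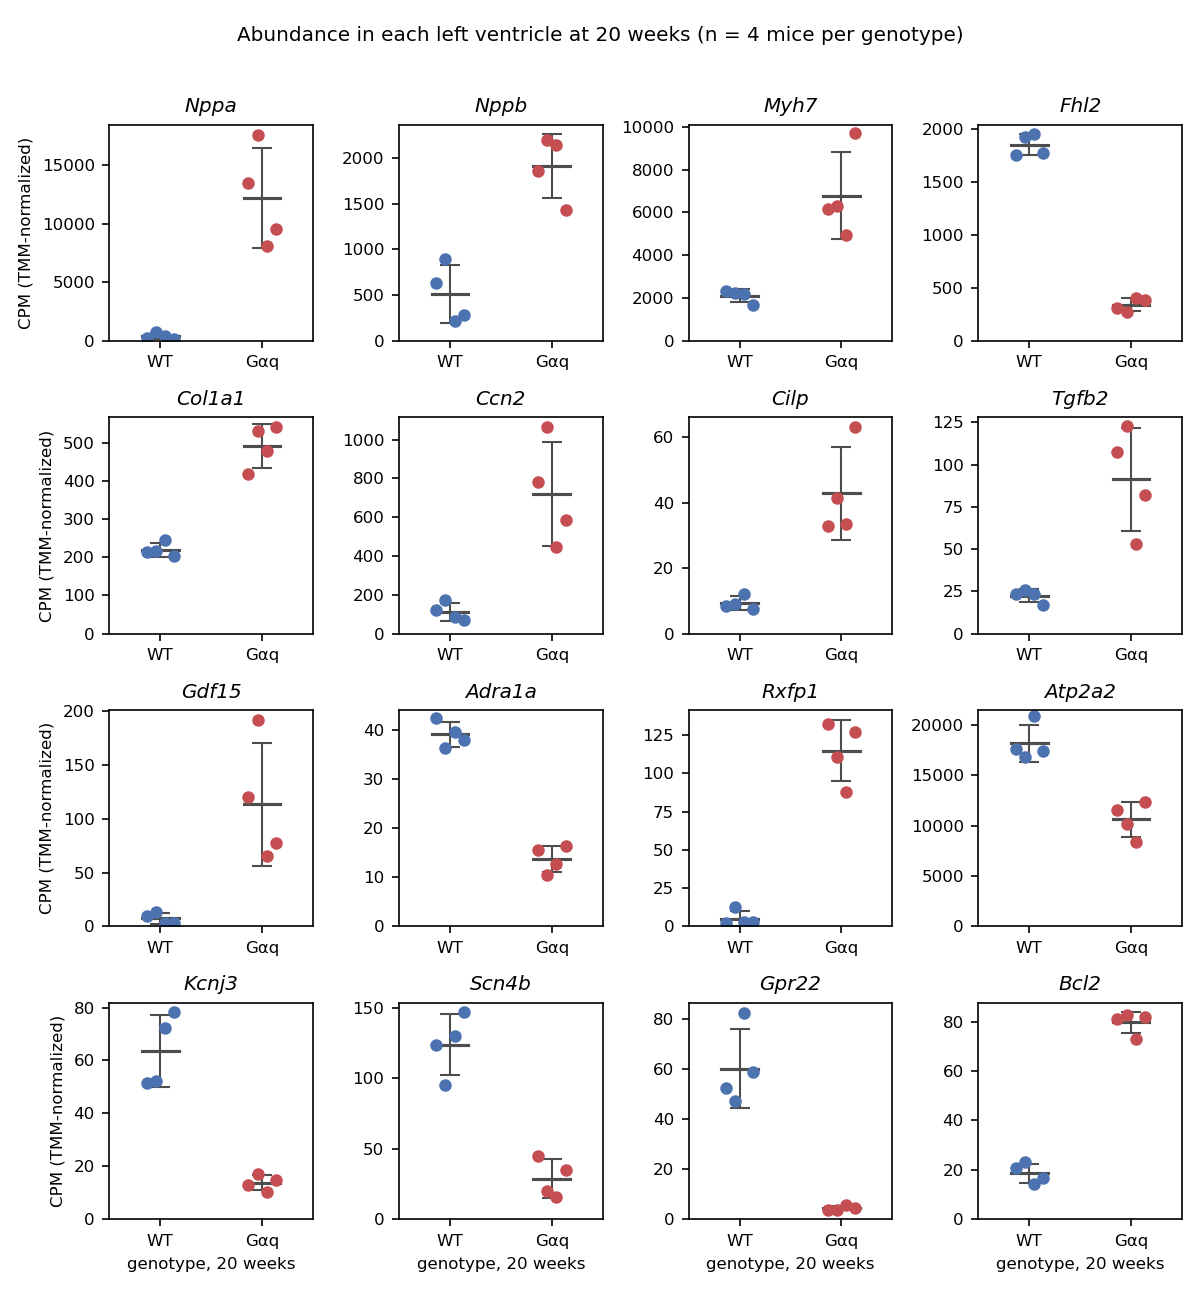
Abundance in TMM-normalized CPM (linear axes from 0) of 16 genes in each left ventricle at 20 weeks, WT in blue and Gαq in red, with the mean and SD of 4 mice per genotype. In each panel the Gαq mice lie on one side of the WT mice: Nppa is between 193 and 732 CPM in WT and between 8097 and 17560 CPM in Gαq, and Fhl2 is between 1754 and 1957 CPM in WT and between 277 and 401 CPM in Gαq.

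Collagens rose almost as a whole. Of 27 tested collagen genes 22 rose and none fell (19 and none with the cage as a block), with a median log2 fold change of 0.825. Collagens I and III form the fibrils that stiffen a fibrotic heart. Col1a1 (ENSMUSG00000001506) was at 213, 216, 245 and 204 CPM in WT and at 417, 530, 477 and 542 CPM in Gαq. Col3a1 was at 408, 380, 398 and 450 CPM in WT and at 582, 673, 785 and 702 CPM in Gαq. For both, all Gαq mice stood above all WT mice and the WT mice varied little. Log2 fold changes were 1.17 for Col1a1 (standard error 0.13, adjusted p = 3.35e-06) and 0.75 for Col3a1 (standard error 0.12, adjusted p = 0.000125). Col1a2, the partner chain of Col1a1, rose by 1.06. Of 8 basement membrane collagens 6 rose, among them Col15a1 by 1.14 and Col4a3 by 1.19, while the abundant Col4a1 rose by 0.30. The largest rise in the list was that of Col22a1, found at tissue junctions, at 1.88, 1.83, 1.03 and 0.32 CPM in WT and at 3.48, 10.3, 3.53 and 14.4 CPM in Gαq. Gαq replicates 2 and 4 were far above replicates 1 and 3. Its log2 fold change of 2.66 (adjusted p = 0.00413) became 2.08 and did not pass with the cage as a block.

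Matrix glycoproteins and proteoglycans rose in 36 of 65 tested genes and fell in 3, with a median log2 fold change of 0.54. Matricellular proteins signal to cells rather than bear load. Ccn2, connective tissue growth factor, was at 123, 174, 85.3 and 70.5 CPM in WT and at 780, 1065, 448 and 585 CPM in Gαq. The lowest Gαq mouse had more than 2 times the CPM of the highest WT mouse (log2 fold change 2.67, standard error 0.26, adjusted p = 7.12e-07). Cilp, a matrix protein that binds and dampens TGFβ, was at 8.59, 9.15, 12.2 and 7.45 CPM in WT and at 32.9, 41.6, 33.5 and 63.3 CPM in Gαq. Gαq replicate 4 was the highest, and all Gαq mice were above the WT mice (log2 fold change 2.20, adjusted p = 3.72e-05). Postn, periostin, the product of activated fibroblasts, was at 63.5, 79.5, 81.9 and 62.5 CPM in WT and at 119, 157, 146 and 178 CPM in Gαq, again without overlap (log2 fold change 1.06, adjusted p = 0.000105). In the elastic fibre subgroup 13 of 18 genes rose, with Mfap4, a microfibril protein, up by 1.75 and Fn1, fibronectin, up by 1.18. Of the proteoglycans Bgn (1.08) and Dcn (0.71), biglycan and decorin, rose. Thbs2, an antiangiogenic thrombospondin, fell by 0.73, in contrast to Thbs4, which rose by 1.79.

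Enzymes that make, crosslink and cleave matrix rose in 25 of 52 tested genes and fell in 2. Of 17 genes of collagen processing 14 rose and none fell. P4ha1, the main prolyl hydroxylase chain, rose by 0.79 on the log2 scale and Loxl2, a crosslinking lysyl oxidase, by 0.80. P4ha3, a minor chain of the same enzyme, was at 0.0876, 0.298, 0.41 and 0.28 CPM in WT and at 1.02, 1.58, 1.28 and 1.49 CPM in Gαq. Though low everywhere, the groups were well apart (log2 fold change 2.29, standard error 0.45, adjusted p = 0.000919). Lox itself rose by 0.45 and did not pass with the cage as a block. Timp1, an inhibitor of metalloproteinases, was at 1.71, 1.79, 6.24 and 3.16 CPM in WT and at 4.77, 6.66, 5.22 and 6.53 CPM in Gαq. WT replicate 3 lay within the Gαq range and the other WT mice below it. The log2 fold change of 0.84 did not pass (adjusted p = 0.0501), whereas 1.73 with the cage as a block and 1.38 without WT replicate 3 did. Among metalloproteinases Adamts8 (1.75), Mmp14 (0.96) and Mmp2 (0.64) rose.

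Markers of fibroblasts, many of which are themselves members of the matrix lists, were mostly higher. Of 10 fibroblast markers 8 rose and none fell, and their summed abundance was 3724, 3418, 3028 and 3466 CPM in WT and 4765, 5392, 6481 and 5208 CPM in Gαq, without overlap. Gsn, the most abundant of them, held 46.7% of that sum and did not pass with the cage as a block. Of 8 markers of activated fibroblasts 5 rose, and their sum was between 134.4 and 186.1 CPM in WT and between 310.5 and 520.6 CPM in Gαq, with Postn at 38.8% of it. Col1a1, Col1a2 and Dcn were among the fibroblast markers that are also in the matrix lists. All activated markers but Meox1 are in those lists, Postn, Cilp, Thbs4 and Ltbp2 among them. These sums are therefore largely the matrix genes counted again and not a separate observation. Cardiac myocyte markers summed to 97620 CPM (SD 6020, 4 mice) for WT against 89920 CPM (SD 8570, 4 mice) for Gαq and overlapped, with Myh6 at 36.8%, and 1 of 10 rose and 4 fell. Of 5 tested atrial myocyte markers 2 rose, and the sum of all 6 was 216.5, 744.5, 472.3 and 195.3 CPM in WT and 13490, 17780, 8097 and 9634 CPM in Gαq, with Nppa at 99.1% of it. More cells of a type and more RNA per cell cannot be told apart in tissue RNA, and the part of either in the matrix genes was not tested.

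The TGFβ family, which drives fibroblasts to make matrix, was higher in several of its ligands. Of 45 tested genes 14 rose and 1 fell (9 and 1 with the cage as a block). Of 14 ligands 6 rose, and Inhba, an activin subunit, fell by 0.80 but did not pass without the WT-only cage. Tgfb2 was at 23.6, 25.7, 23.4 and 17.1 CPM in WT and at 108, 123, 52.9 and 82.3 CPM in Gαq. Tgfb3 was at 28.9, 29.9, 22.5 and 25.7 CPM in WT and at 59.4, 68.6, 54.9 and 64.8 CPM in Gαq. In both cases the groups were apart, and Gαq replicate 3 was the lowest Gαq mouse. Log2 fold changes were 2.03 for Tgfb2 (standard error 0.18, adjusted p = 3.14e-07) and 1.21 for Tgfb3 (standard error 0.10, adjusted p = 1.76e-07). Tgfb1, the isoform of leukocytes and platelets, had a log2 fold change of 0.12 (adjusted p = 0.388). Values per kilobase were taken over all annotated exons of each gene together, 5042 bases for Tgfb1, 5791 for Tgfb2 and 3383 for Tgfb3. On this length WT had 8.47 CPM per kb of Tgfb1, 7.91 of Tgfb3 and 3.87 of Tgfb2. Gαq had 9.17 of Tgfb1, 15.8 of Tgfb2 and 18.3 of Tgfb3. All annotated exons together can be longer than the transcript that is made, so the order of the 3 isoforms within a genotype is uncertain.

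Gdf15 (ENSMUSG00000038508), a distant member of the family and a circulating hormone of cellular stress that curbs appetite, rose most of the ligands. It was at 9.90, 13.2, 3.57 and 3.20 CPM in WT and at 120, 192, 65.0 and 77.7 CPM in Gαq. In both genotypes replicates 1 and 2 were the higher mice, and the groups were far apart (log2 fold change 3.93, standard error 0.39, adjusted p = 7.47e-07). Gdf6, a BMP ligand, rose by 1.86 on the log2 scale and Chrdl1, a secreted BMP antagonist, by 1.91. Of the receptors Tgfbr2 rose by 0.36 but did not pass with the cage as a block. Smad3 (0.05, adjusted p = 0.783) and Smad2 (0.02, adjusted p = 0.859), the transcription factors below the receptors, did not pass.

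Within the Gq pathway itself 22 of 108 tested genes rose and 8 fell (13 and 5 with the cage as a block), with a median log2 fold change of 0.10. Subunits of other G proteins were mostly not called: of 19, Gnao1 (0.91) and Gnai2 (0.25), of the Gi and Go class, rose beside Gnaq, and Gnai2 did not pass with the cage as a block. Plcb1, an effector of Gαq, had a log2 fold change of -0.23 (adjusted p = 0.266), while Plcd3, a phospholipase of another class, rose by 1.03. Of the kinases Prkca, the main conventional protein kinase C of the heart, was at 45.0, 37.1, 42.4 and 41.0 CPM in WT and at 64.2, 57.8, 56.8 and 67.7 CPM in Gαq. All Gαq mice were above all WT mice (log2 fold change 0.58, adjusted p = 0.000634). Camk2b, a minor calmodulin kinase of the heart, fell by 0.72, and Camk2d, the main one, rose by 0.35 but did not pass with the cage as a block. Nfatc2, a calcineurin-driven transcription factor, rose by 0.89.

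Rgs2, which speeds the shut-off of Gαq and is the RGS protein most selective for it, was lower. It was at 102, 58.5, 80.4 and 57.2 CPM in WT and at 19.1, 20.6, 20.9 and 23.5 CPM in Gαq. The WT mice varied, and each was more than 2 times above every Gαq mouse (log2 fold change -1.82, standard error 0.25, adjusted p = 2.46e-05). Rgs7, of a class that acts on Gi and Go, rose by 1.51 from a low level, at 1.53, 1.83, 1.56 and 1.6 CPM in WT and 5.33, 5.27, 4.01 and 4.01 CPM in Gαq.

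The list of receptors of hormones and transmitters also holds their peptides and enzymes, and of its 82 tested genes 16 rose and 14 fell. Of the α1-adrenergic receptors, which couple to Gαq, Adra1a and Adra1b fell, while Adra1d was tested and did not pass. Adra1a, an α1-adrenergic receptor, was at 42.4, 36.2, 39.6 and 38.0 CPM in WT and at 15.5, 10.5, 12.6 and 16.3 CPM in Gαq. Adra1b was at 37.4, 34.6, 48.3 and 40.7 CPM in WT and at 14.5, 17.9, 15.1 and 19.3 CPM in Gαq. For both receptors no Gαq mouse reached the WT range. Log2 fold changes were -1.51 for Adra1a (standard error 0.14, adjusted p = 3.31e-07) and -1.27 for Adra1b (standard error 0.12, adjusted p = 7.86e-07). Ednra, the endothelin receptor of myocytes and smooth muscle, fell by 0.84. Agtr1a, the angiotensin II receptor, had a log2 fold change of -0.33 (adjusted p = 0.0753) and Adrb1, the main β-adrenergic receptor, one of -0.14 (adjusted p = 0.499). Of 27 tested genes in the group of other receptors coupled to G proteins, which includes the ligand gene Apln, 6 rose and 1 fell. Among those that can couple to Gαq, Htr2a, a serotonin receptor, rose by 1.15 and F2r, the thrombin receptor, by 0.47, while P2ry1, a receptor of ADP, fell by 0.59.

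The changes in this list included peptides and enzymes around the receptors. Edn3, an endothelin better known from neural crest, was at 4.60, 3.66, 0.862 and 2.04 CPM in WT and at 36.2, 25.3, 17.9 and 27.5 CPM in Gαq. Every Gαq mouse exceeded the WT mice several times over (log2 fold change 3.26, standard error 0.34, adjusted p = 1.39e-06). Edn1, the endothelin of the vessel wall, rose by 0.74. Mme, neprilysin, the protease that degrades natriuretic peptides, was at 34.7, 31.3, 32.7 and 36.7 CPM in WT and at 11.0, 9.95, 14.3 and 10.8 CPM in Gαq. Both groups were tight and separate (log2 fold change -1.55, adjusted p = 5.22e-08). Of the phosphodiesterases, which limit cyclic AMP, more fell than rose. Pde4a (-1.21), Pde7b (-0.73) and Pde3a (-0.59) were among the falls, while Pde1c rose by 0.55 and Pde8a by 0.24. The rise of Pde8a did not pass with the cage as a block. Nos1, the neuronal nitric oxide synthase, rose by 2.54 and did not pass with the cage as a block.

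Outside the preset lists, the relaxin receptor gene Rxfp1 (ENSMUSG00000034009) had one of the largest rises. Relaxin is a peptide hormone that relaxes vessels and limits collagen. Rxfp1 was at 2.10, 12.5, 3.04 and 2.76 CPM in WT and at 132, 111, 87.9 and 127 CPM in Gαq. WT replicate 2 stood above the other WT mice, as it did for Gnaq, and remained far below the Gαq mice (log2 fold change 4.49, standard error 0.40, adjusted p = 2.91e-07). Gpr22 (ENSMUSG00000044067), an orphan receptor enriched in heart and brain, was among the largest falls. It was at 52.5, 47.1, 82.7 and 59.1 CPM in WT and at 3.74, 3.77, 5.5 and 4.54 CPM in Gαq. The WT mice exceeded the Gαq mice several times over, with WT replicate 3 the highest (log2 fold change -3.77, standard error 0.20, adjusted p = 5.4e-10).

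**Figure D3:**
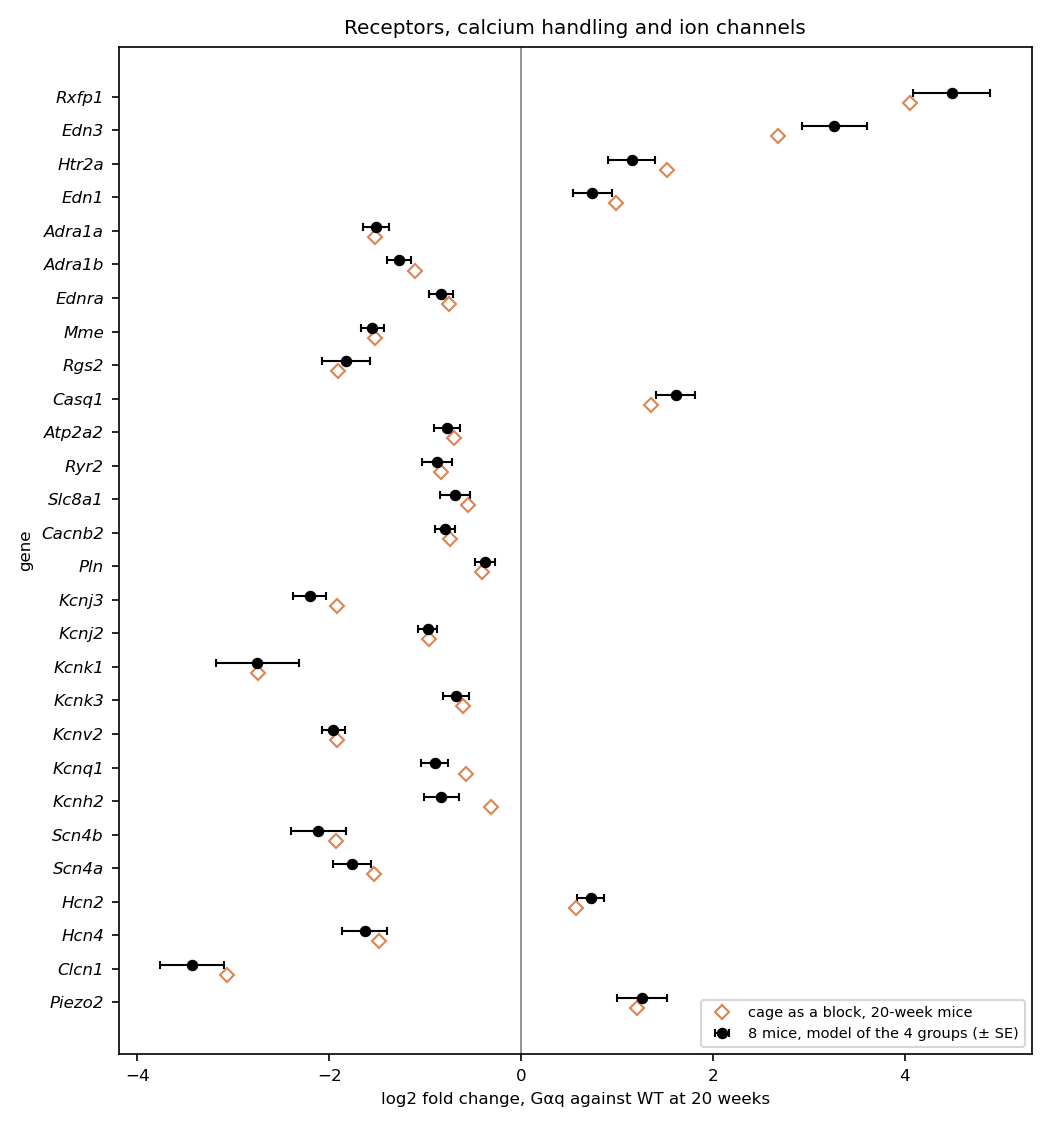
Log2 fold change of Gαq against WT at 20 weeks for 28 genes of receptors, calcium handling and ion channels, as black points with the standard error from the fit of all 4 groups, and as open diamonds with the cage as a block in the 20-week mice alone. Most diamonds lie near the points: Adra1a is at -1.51 and -1.53, and Kcnj2 at -0.97 and -0.96, while Kcnh2 moves from -0.83 to -0.32.

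Calcium handling, the cycle of release and uptake that drives each beat, had 9 rises and 10 falls among 53 tested genes (3 and 5 with the cage as a block). The falls included its most abundant genes. Atp2a2, the SERCA2 pump that refills the sarcoplasmic reticulum, was at 17580, 16790, 20840 and 17440 CPM in WT and at 11540, 10200, 8417 and 12300 CPM in Gαq. Ryr2, the release channel, was at 2791, 2697, 3288 and 2570 CPM in WT and at 1784, 1318, 1193 and 1882 CPM in Gαq. In both genes WT replicate 3 was the highest and Gαq replicate 3 the lowest, and the groups did not overlap. The fall was -0.77 on the log2 scale for Atp2a2 (standard error 0.13, adjusted p = 0.000295) and -0.88 for Ryr2 (standard error 0.16, adjusted p = 0.000415). Pln, phospholamban, which brakes the pump, was at 6050, 5926, 5959 and 5520 CPM in WT and at 4544, 4347, 4473 and 4758 CPM in Gαq. The groups were tight and apart, yet the log2 fold change of -0.37 (adjusted p = 0.0135) did not pass with the cage as a block. Sln, sarcolipin, which regulates the same pump in atria, ranged from 0.175 to 10.8 CPM in WT and from 0.83 to 26.6 CPM in Gαq (log2 fold change 1.68, adjusted p = 0.273). Without WT replicate 3 Sln passed the threshold. Slc8a1, the sodium-calcium exchanger, fell by 0.69 and Cacnb2, a subunit of the L-type channel, by 0.79, while Casq1, the calsequestrin of skeletal muscle, rose by 1.61.

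Potassium channels, which set the resting potential and end the action potential, fell in 12 of 46 tested genes and rose in 4 (7 and 1 with the cage as a block). Kcnj3, a subunit of the channel that acetylcholine opens, was at 51.5, 52.1, 72.1 and 78.4 CPM in WT and at 12.8, 17.2, 10.3 and 14.8 CPM in Gαq. The 2 WT mice of the WT-only cage were the highest, and all WT mice were above the Gαq mice (log2 fold change -2.21, standard error 0.17, adjusted p = 7.2e-08). Kcnj2, the inward rectifier that holds the resting potential, was at 65.4, 53.6, 63.9 and 56.8 CPM in WT and at 34.2, 28.4, 29.4 and 30.3 CPM in Gαq. The groups did not overlap and varied little (log2 fold change -0.97, standard error 0.10, adjusted p = 1.48e-06). Kcnv2, a modifier of delayed rectifiers, fell by 1.96 and Kcnk3, an acid-sensitive leak channel, by 0.68. Kcnq1, the pore of the slow delayed rectifier, fell by 0.90. Kcnh2, the pore of the rapid one, was at 71.5, 78.6, 154 and 127 CPM in WT and at 68.6, 59.2, 46.4 and 68.5 CPM in Gαq. Its WT-only cage held the highest values, and the log2 fold change of -0.83 (adjusted p = 0.00259) became -0.32 and did not pass with the cage as a block.

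The transient outward current, which shapes early repolarization in the mouse and is known to shrink in hypertrophy, had 1 changed gene of 6. Kcna4, of its slow component, rose by 1.08 but did not pass with the cage as a block. On the log2 scale the change was 0.08 for Kcnip2 (adjusted p = 0.728), -0.41 for Kcnd2 (adjusted p = 0.186) and -0.33 for Kcnd3 (adjusted p = 0.0715). Without the filter on low counts Kcnd2 and Kcnd3 passed the threshold. Kcna5, of the ultrarapid delayed rectifier, had a log2 fold change of -0.10 (adjusted p = 0.772).

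Among 55 genes of sodium, pacemaker, chloride and other channels and of ion transporters 9 rose and 10 fell. Scn4b, the β4 subunit of sodium channels, was at 123, 95.2, 130 and 147 CPM in WT and at 45.0, 19.9, 15.6 and 34.8 CPM in Gαq. No Gαq mouse came near the WT mice (log2 fold change -2.11, standard error 0.29, adjusted p = 2.69e-05). Hcn4, the main pacemaker channel, was at 16.0, 15.2, 23.8 and 14.5 CPM in WT and at 4.92, 7.61, 4.60 and 5.29 CPM in Gαq. WT replicate 3 stood above the other WT mice, and all WT mice were above the Gαq mice (log2 fold change -1.63, adjusted p = 4.3e-05). Hcn2, the isoform of ventricular muscle, rose by 0.72. Clcn1, the chloride channel of skeletal muscle, fell by 3.43, and Piezo2, a stretch-gated channel, rose by 1.26.

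Transcription factors of the heart changed in equal numbers, 18 up and 18 down among 110 tested genes, with a median log2 fold change of -0.02. Of 39 core factors of the heart 5 rose and 8 fell. Several of the best known did not pass, with log2 fold changes of 0.04 for Gata4 (adjusted p = 0.824), -0.04 for Nkx2-5 (adjusted p = 0.853) and 0.10 for Mef2c (adjusted p = 0.455). Members of the Iroquois family, which pattern the ventricular wall and its conduction system, moved apart. Irx1 was at 17.4, 13.1, 22.8 and 4.52 CPM in WT and at 1.23, 2.42, 4.39 and 3.72 CPM in Gαq. WT replicate 4 was low, just above the highest Gαq mouse (log2 fold change -2.26, standard error 0.44, adjusted p = 0.000853), while Irx3 rose by 0.86. Vgll2, a cofactor of TEAD factors known from skeletal muscle, was at 4.47, 3.11, 1.31 and 1.36 CPM in WT and at 19.1, 13.6, 6.91 and 18.7 CPM in Gαq. WT mice of the WT-only cage were lowest, and all Gαq mice were higher than all WT mice (log2 fold change 2.51, adjusted p = 0.000168). Yap1, the TEAD coactivator of the Hippo pathway, rose by 0.42, and Hand2, a factor of the right ventricle and outflow tract in development, fell by 1.19.

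Of 23 factors of metabolism 8 fell and none rose. Ppara, which turns on fatty acid use, was at 51.1, 59.9, 73.0 and 60.2 CPM in WT and at 38.4, 29.9, 27.6 and 44.2 CPM in Gαq, without overlap (log2 fold change -0.80, adjusted p = 0.000275). Ppargc1a, a coactivator of mitochondrial genes, fell by 0.72. Of 19 immediate early genes 5 rose, among them Egr2 by 1.80. Of 29 factors of fibroblasts and of stress 8 rose and 2 fell. Sox9 (1.15), Twist1 (1.05) and Meox1 (0.97), known from activated fibroblasts, rose, while Runx1 (0.27, adjusted p = 0.416) and Scx (0.24, adjusted p = 0.379) did not pass. Hif1a, the oxygen-sensing factor, rose by 0.66.

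Growth factors, cytokines and their receptors changed in 36 genes up and 22 down among 133 tested. Nrg1, neuregulin 1, a survival factor that endothelium sends to myocytes through ErbB receptors, was at 0.57, 2.13, 0.656 and 0.841 CPM in WT and at 19.2, 11.6, 22.0 and 8.55 CPM in Gαq. Every Gαq mouse was severalfold above every WT mouse, and Gαq replicates 1 and 3 were the highest (log2 fold change 3.87, standard error 0.59, adjusted p = 8.95e-05). Hbegf, another ligand of this receptor family, rose by 1.22 and Erbb2, a receptor, by 0.35. Fgf6, a growth factor of skeletal muscle repair, rose by 2.62. Angpt1, which stabilizes vessels, was at 23.1, 22.5, 35.4 and 47.1 CPM in WT and at 8.46, 5.43, 9.64 and 6.61 CPM in Gαq. Values in the WT-only cage were the highest, and the groups did not overlap (log2 fold change -2.09, adjusted p = 9.13e-05).

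In the Wnt pathway 11 of 25 tested genes rose and 5 fell. Secreted antagonists went both ways, with Wif1 up by 2.64, Sfrp2 up by 1.6 and Sfrp5 down, at a log2 fold change of -2.02. Of the noncanonical ligands Wnt11 (-1.12) and Wnt5a (-0.93) fell, and Wnt5b rose by 0.62 but did not pass with the cage as a block. In the MAP kinase subgroup Dusp4, a phosphatase that ERK induces, rose by 1.76. Mapk10 (-1.53), a JNK isoform, and Map2k6 (-1.28), which activates p38, fell.

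Among genes of inflammation, some receptors and complement genes rose. Of 72 tested genes of the inflammation and complement list 11 rose and 2 fell, 18.1% against 23.3% of all genes (7 and 1 with the cage as a block), a share near that of all genes. Of 21 cytokines and chemokines none rose and 2 fell, of 18 receptors 6 rose, and of 13 complement and acute phase genes 4 rose. Tlr2 (0.89) and Tlr4 (0.67), receptors of innate immunity, and C7 (0.69), of the terminal complement pathway, rose. Of 10 macrophage markers 2 rose, and their sum overlapped between genotypes, at 513.1, 430.0, 390.2 and 471.8 CPM in WT and 489.9, 480.4, 754.0 and 462.2 CPM in Gαq, with Gαq replicate 3 apart from the rest.

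Among 66 tested genes of cell death 9 rose and 10 fell (3 and 4 with the cage as a block). Bcl2, which keeps the mitochondrial outer membrane closed to cytochrome c, was at 20.5, 23.0, 14.2 and 16.4 CPM in WT and at 80.9, 82.6, 73.1 and 82.1 CPM in Gαq. The Gαq mice were tight and far above the WT mice (log2 fold change 2.10, standard error 0.12, adjusted p = 1.18e-09). Bnip3, a BH3 protein of mitochondrial turnover, fell by 0.66 and Cycs, cytochrome c, by 0.53. Bnip3l, also called Nix and known for driving myocyte death in Gαq hearts, rose by 0.21 (adjusted p = 0.0257) and did not pass with the cage as a block. Bax (0.15, adjusted p = 0.259), which opens the mitochondrial outer membrane in apoptosis, did not pass.

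Antioxidant genes were lower more often than higher: of 40 tested genes of defence 11 fell and 4 rose. Nqo1, a quinone reductase that NRF2 induces, was at 82.1, 72.7, 83.3 and 70.6 CPM in WT and at 29.7, 28.1, 31.6 and 38.5 CPM in Gαq. Groups lay wide apart (log2 fold change -1.27, standard error 0.19, adjusted p = 7.78e-05). Sod2 (-0.54) and Prdx3 (-0.48), which clear superoxide and peroxide in mitochondria, and Ucp3 (-1.26), an inner membrane carrier, fell. Gpx3, a secreted peroxidase, rose by 0.79. Of the sources Nox4, an oxidase that makes hydrogen peroxide, rose by 0.81 at 2.29 CPM in WT and 4.02 CPM in Gαq, and Maob, the outer membrane monoamine oxidase, fell by 1.91.

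In the unfolded protein and integrated stress responses 27 of 66 tested genes rose and 7 fell (12 and 1 with the cage as a block). The integrated stress response slows translation and, through ATF4, raises enzymes of serine, one-carbon and amino acid metabolism. In that subgroup 12 of 25 genes rose and 2 fell. Mthfd2, a mitochondrial folate enzyme, was at 5.56, 4.60, 5.95 and 4.84 CPM in WT and at 16.9, 17.6, 10.9 and 12.3 CPM in Gαq. Pycr1, of proline synthesis, was at 1.53, 1.70, 1.52 and 1.28 CPM in WT and at 3.74, 3.57, 3.35 and 3.18 CPM in Gαq. In both, all Gαq mice were above all WT mice. Mthfd2 and Pycr1 rose on the log2 scale, by 1.46 for Mthfd2 (standard error 0.15, adjusted p = 1.37e-06) and 1.19 for Pycr1 (standard error 0.17, adjusted p = 4.09e-05). Asns (0.85) and Trib3 (0.81) rose, while Atf4 itself (0.15, adjusted p = 0.129) and Ddit3 (-0.05, adjusted p = 0.769) did not pass. Hspa5, the chief chaperone of the endoplasmic reticulum, had a log2 fold change of -0.04 (adjusted p = 0.795). Hspa1a, an inducible cytosolic chaperone, was at 3.11, 1.70, 1.68 and 1.40 CPM in WT and at 11.1, 13.9, 2.90 and 1.94 CPM in Gαq, high only in the 2 Gαq mice of one cage. Its log2 fold change of 1.91 (adjusted p = 0.0047) did not pass without the WT-only cage.

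Genes of glucose, glycogen and high-energy phosphate fell in 30 of 84 tested genes and rose in 9 (24 and 4 with the cage as a block), with a median log2 fold change of -0.18. Fbp2, a fructose bisphosphatase of muscle, was at 21.9, 21.1, 27.7 and 21.9 CPM in WT and at 1.64, 1.98, 2.73 and 3.35 CPM in Gαq. Every WT mouse was severalfold above every Gαq mouse (log2 fold change -3.24, standard error 0.16, adjusted p = 3.06e-10). Slc2a4, the insulin-responsive glucose transporter GLUT4, fell by 0.49, and Slc2a1, the fetal transporter GLUT1, had a log2 fold change of 0.13 (adjusted p = 0.517). Pdk4, which shuts off pyruvate oxidation, fell by 1.22, and Pdha1, a subunit of the dehydrogenase that oxidizes pyruvate, by 0.45, 2 of 7 falls among 14 genes of that step. Of the creatine kinases, which buffer ATP, Ckm (-0.59) and Ckmt2 (-0.40) of muscle fell, while Ckmt1, the mitochondrial form of other tissues, rose by 1.87 from 0.578 to 2.14 CPM.

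Of 40 tested cell cycle genes 1 rose and 1 fell, 5% against 23.3% of all genes. Cenpf, a kinetochore protein, was at 9.11, 19.3, 36.1 and 18.1 CPM in WT and at 3.69, 3.88, 5.25 and 4.71 CPM in Gαq. The WT mice varied widely and all stood above the Gαq mice (log2 fold change -2.23, adjusted p = 3.69e-05). Ccnd2, a cyclin of the G1 phase, rose by 0.99. Of 20 tested clock genes 2 rose and 1 fell, 15%, which is not far from the share of all genes. Hlf, an output factor of the clock, fell by 0.51, and Npas2, a partner of Bmal1, rose by 1.28 but did not pass with the cage as a block.

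The largest changes outside these lists included genes with little known role in the heart. Rprm, a p53 target that can arrest the cell cycle, was at 0.263, 0.383, 0.041 and 0.20 CPM in WT and at 4.77, 8.12, 5.05 and 4.5 CPM in Gαq, near absence in WT and present in every Gαq mouse (log2 fold change 4.64, adjusted p = 1.65e-07). Npy4r, a receptor of pancreatic polypeptide, rose by 3.70, Sost, a Wnt antagonist of bone, by 3.31 and Fgf23, a phosphate hormone of bone, by 3.51, all from 1.31 CPM or less on average in WT. Aqp4, a water channel, was at 2.54, 4.30, 13.7 and 7.61 CPM in WT and at 0.307, 0.159, 0.173 and 0.248 CPM in Gαq. The WT mice of the WT-only cage were the highest, and Gαq mice were near the floor (log2 fold change -5.0, standard error 0.58, adjusted p = 4.77e-06). Smaller falls than that of Aqp4 were those of Helt (-3.85), a transcription factor, Igfals (-3.81), a carrier of insulin-like growth factors in blood, and Acsm5 (-2.98), an acyl-CoA synthetase.

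The same contrast in 4-week mice, which are other animals with other controls, allowed a test of whether the effect of genotype differed with age. In the quasi-likelihood test of edgeR the difference passed an adjusted p under 0.05 for 35 of 16786 genes (0.209%), and all 35 were among the genes changed at 20 weeks. For 33 of them the change was larger at 20 weeks, while Abat, an enzyme that breaks down GABA, had 0.98 at 20 weeks and 1.79 at 4 weeks. The count depends on the method, with 200 genes in DESeq2 and 234 without a filter on low counts. Without the WT-only cage 8 genes passed, 1 with a positive difference and 7 with a negative one. Of the genes in this paragraph, Tdp1, Gpr22 and Abat passed there, and Myh7, Fhl2 and Dusp4 did not. Leaving out single mice gave between 11, without Gαq replicate 2 of 20 weeks, and 69, without Gαq replicate 3 of 20 weeks. Myh7 had a log2 fold change of 1.69 at 20 weeks and 0.12 at 4 weeks, a difference of 1.57 (adjusted p = 0.011). Fhl2 went from -1.47 at 4 weeks to -2.44 at 20 weeks (difference -0.97, adjusted p = 0.0079) and Gpr22 from -1.74 to -3.77 (difference -2.03, adjusted p = 0.0023). Dusp4 had a log2 fold change of 1.76 at 20 weeks and of -0.03 at 4 weeks (difference 1.79). Tdp1, a DNA repair enzyme, went from 0.49 to 1.84 (difference 1.35, adjusted p = 0.0023). For the natriuretic peptides the difference between ages did not pass, at 0.69 for Nppa (adjusted p = 0.699) and -0.26 for Nppb (adjusted p = 0.933).

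**Figure D4:**
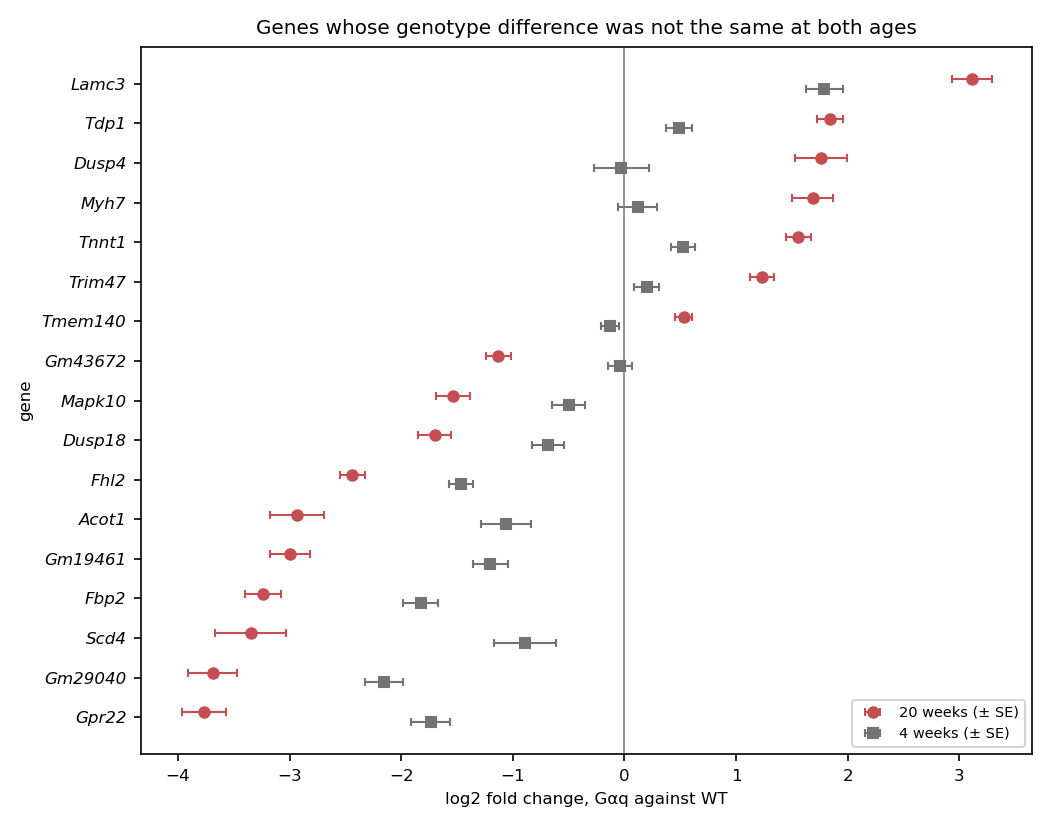
Log2 fold change of Gαq against WT with its standard error at 20 weeks (red circles) and at 4 weeks (grey squares, other mice and other controls) for 17 genes whose genotype difference changed with age. These 17 lie further from 0 at 20 weeks, as do 33 of all 35 genes with a difference, such as Myh7 at 1.69 against 0.12 and Gpr22 at -3.77 against -1.74.

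Promoter sequences were searched for short motifs, in windows around the start of transcription in RefSeq (GRCm38.p6) that lie mostly upstream of it, on both strands. Promoters were found for 11393 of 16779 tested symbols, 14554 promoters in all. The letters CATTCC, which TEAD factors bind, occurred in 12.7% of all promoters, in 13.0% of those of risen genes and in 12.9% of those of fallen genes. The letters TGATGCAA of the composite site of ATF4 occurred in 0.57%, 0.783% and 0.692%, and TCAAGGTCA of the estrogen-related receptors in 0.275%, 0.209% and 0.532%. E-boxes (CACGTG) occurred in 9.64% of all promoters, in 10.5% of those of risen genes and in 8.14% of those of fallen genes, and the MEF2 site in 2.0%, 2.19% and 2.77%. Differences between these shares were not tested.

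Of the 14 risen genes of the fetal and stress list 6 hold CATTCC in this window, as do Acta2, Ankrd23, Myh6 and Myl7 of the same list, which did not pass the test. Nppb, Acta1, Ankrd1 and Myh7 are shown as risen genes with a match and were chosen after their values were seen. Each is written 5′ to 3′ on the strand of its gene, with the match in capitals, which reads GGAATG where it lies on the other strand. The windows are chr4:147985650-147985949 on the forward strand for Nppb and, on the reverse strand, chr8:123894726-123895025 for Acta1, chr19:36119795-36120094 for Ankrd1 and chr14:54994577-54994876 for Myh7. A match describes the letters only, and binding was not measured.
Nppb: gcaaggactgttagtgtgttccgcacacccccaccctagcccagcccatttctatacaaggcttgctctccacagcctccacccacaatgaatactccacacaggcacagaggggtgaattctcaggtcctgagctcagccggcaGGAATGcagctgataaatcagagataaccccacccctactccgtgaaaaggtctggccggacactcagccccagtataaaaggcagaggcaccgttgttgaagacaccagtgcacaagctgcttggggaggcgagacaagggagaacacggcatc
Acta1: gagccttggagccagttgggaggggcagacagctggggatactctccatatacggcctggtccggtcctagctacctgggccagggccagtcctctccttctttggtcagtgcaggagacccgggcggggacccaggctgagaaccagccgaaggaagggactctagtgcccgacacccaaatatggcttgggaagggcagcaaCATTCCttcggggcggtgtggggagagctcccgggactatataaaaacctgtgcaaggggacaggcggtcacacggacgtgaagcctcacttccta
Ankrd1: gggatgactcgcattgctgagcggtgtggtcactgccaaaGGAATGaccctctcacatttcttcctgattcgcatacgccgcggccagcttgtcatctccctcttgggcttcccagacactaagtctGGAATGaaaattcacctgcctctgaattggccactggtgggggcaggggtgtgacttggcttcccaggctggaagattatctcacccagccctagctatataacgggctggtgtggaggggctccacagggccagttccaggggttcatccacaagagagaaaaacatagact
Myh7: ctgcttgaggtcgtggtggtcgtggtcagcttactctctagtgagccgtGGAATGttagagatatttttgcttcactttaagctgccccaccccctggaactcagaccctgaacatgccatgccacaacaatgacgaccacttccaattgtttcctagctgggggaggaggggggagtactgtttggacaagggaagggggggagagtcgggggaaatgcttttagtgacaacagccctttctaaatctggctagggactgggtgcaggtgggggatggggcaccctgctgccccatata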

How the data were processed

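The counts of read pairs per gene are those the authors deposited. The study's labels give STAR 2.6.0c on mm10 and featureCounts from Subread 1.6.2 with Ensembl build 100, counting properly paired reads with a unique position for nuclear-encoded genes. The deposited table of variance-stabilized values was not used. Of 55450 gene identifiers 55190 are in GENCODE M21, which gave positions and lengths. The length of a gene is that of all its annotated exons together.

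Counts of all 16 mice were fitted with 1 mean per genotype and age, TMM normalization and the quasi-likelihood test of edgeR 4.0.16 (R 4.3.3, limma 3.58.1), and p values were adjusted by Benjamini-Hochberg over the 16786 genes kept by its default filter. In 85.6% of these genes each of the 16 mice had at least 10 counts. The alternatives used DESeq2 1.42.0, other scalings and filters, the cage as a block, and fewer mice. The fits were tried on simulated counts with known changes before use. The correlation of deviations from the group mean between 20-week mice of the same cage averaged 0.0029 over 4 pairs of WT and Gαq, against -0.0013 over 12 pairs from other cages. Single pairs ranged from -0.0676 to 0.0407 within cages and from -0.2184 to 0.1499 across them. Deviations from a group mean pull such averages towards 0, and the WT-only cage gives no pair of its own. The averages therefore cannot show whether the cage mattered.

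Of 1341 genes in the lists 1340 were matched and 1287 tested. Genes were named in the text for their size of change, their abundance or their place in a list. Lists and their members were chosen with earlier results of these data known. Some tested genes counted in the lists are not reported here by name.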

Additional observations from a re-analysis of the deposited data

Results flagged for a closer look

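In groups of 4 mice, the gap between the most distant mouse and its neighbour was compared with the whole range of the group, and a ratio above Dixon's 95% critical value marks a mouse apart from the rest. Chance gives about 1 in 20 groups, and 8 of 150 groups of WT or Gαq mice at 20 weeks passed. Rxfp1 was highest in WT replicate 2 (ratio 0.910), Hcn4 in WT replicate 3 (0.835), Fbp2 in WT replicate 3 (0.882) and Rprm in Gαq replicate 2 (0.850). Gαq replicate 3 had the highest TMM factor (0.889) and the highest sum of macrophage markers (0.905). The sum of smooth muscle markers was highest in Gαq replicate 4 (0.884), and that of lung markers in Gαq replicate 2 (1), where it was near 0 in all 8 mice.

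The effect of genotype differed between 20 and 4 weeks in the quasi-likelihood test of edgeR for 17 genes named here. The difference in log2 fold change, 20 weeks minus 4 weeks, was positive for Myh7 (1.57), Tnnt1 (1.03), Dusp4 (1.79), Tdp1 (1.35), Trim47 (1.03), Tmem140 (0.66) and Lamc3 (1.32). It was negative for the receptor Gpr22 (-2.03), the desaturase Scd4 (-2.46), Fbp2 (-1.41), the thioesterase Acot1 (-1.87), Fhl2 (-0.97), the phosphatase Dusp18 (-1.01) and the kinase Mapk10 (-1.04). It was also negative for Gm19461 (-1.80), Gm43672 (-1.09) and Gm29040 (-1.54), transcripts without an assigned function. Without the WT-only cage, Tdp1, Gpr22, Gm19461 and Gm43672 passed, and the other 13 did not.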

How the results depend on the processing

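With the cage as a block 2089 genes changed, and without the WT-only cage 2342. Leaving out single 20-week mice gave between 3141 and 3726. DESeq2 gave 4195, the other scalings 3919 and 3814, other filters 3696 and 3795, and the 20-week mice alone 3513. The genotype effect differed with age for 200 genes with DESeq2, 234 without a filter on low counts and 8 without the WT-only cage, and for between 11 (without Gαq replicate 2 of 20 weeks) and 69 (without Gαq replicate 3 of 20 weeks) when single mice were left out. Genes without overlap numbered 4035 of 16786 tested genes with all mice and 6076 of 17349 without the WT-only cage. Leaving out single mice gave between 4534 of 17025 and 5381 of 17007. Smaller groups fail to overlap more often by chance alone, so these higher counts do not show a wider separation of the genotypes. The difference in the Myh7 share was between 8.79 and 10.8 points without single mice (two-sided exact permutation test, p = 0.0571, the smallest that 3 against 4 mice can give). Of 1287 tested list members 482 changed in the main fit, against 328 of 1275 with the cage as a block and 343 of 1294 without the WT-only cage. Without single mice between 427 and 478 changed. Over all alternatives, 7096 values of single genes and lists held, 573 no longer passed the threshold, 26 newly passed it, 20 counts moved by more than 1.5 times and 0 changed sign while called. Of 397 changed genes among 462 named ones, 251 passed under every alternative. No paired analysis was possible because the labels pair no WT mouse with a Gαq mouse, and the cage block took its place.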

Other observations

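Markers of cells other than myocytes and fibroblasts are given here beside the 23.3% of all genes that changed. Of 10 endothelial markers 2 fell, and their sum was 2389, 2292, 2193 and 2607 CPM in WT and 1908, 1986, 2428 and 1757 CPM in Gαq. Gαq replicate 3 lay within the WT range and the other Gαq mice below it. Of 6 smooth muscle markers none passed, and of 7 pericyte markers 1 rose and 1 fell. The 5 mast cell markers, 3 of them tested, summed to 10.4, 11.4, 5.86 and 7.76 CPM in WT and 11.9, 12.8, 15.5 and 13.8 CPM in Gαq, just without overlap. Kit, a receptor found also on other cells, held 90.8% of this sum, and its call was lost with the cage as a block. Markers of T cells, B cells and neutrophils were low in all 8 mice, and none of them passed. Sftpc, Scgb1a1 and Sftpa1 of lung had 0 counts in every mouse.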
